A study of Homo sapiens with 42 samples.

Results

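The clustered protocadherin genes lie side by side on the long arm of human chromosome 5 and encode cell-surface proteins of the cadherin superfamily that let neurons tell their own branches from those of other cells. Each gene of the alpha and gamma clusters has its own promoter and variable first exon, which is joined to constant exons shared by the cluster, whereas the beta genes have a single exon each. A cell uses only some of these promoters. Enhancers that lie beyond the constant exons reach the chosen promoters through DNA loops held by the architectural protein CTCF and by cohesin, and the clusters are known for such long-range contacts.

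Loops of this region were taken from the table of loops by position. They were the loops on chromosome 5 with either anchor starting between 140700000 and 142000000 (hg38), a window that holds the alpha, beta and gamma clusters and the enhancer side downstream of gamma. This gave 28 of 33914 loops. The window was chosen by measured values, since it holds the largest rise at 6 h in the whole table, so values at 6 h against 0 h are given as a description with no test. The cells were K562, an established human leukemia line of wild-type genotype per the labels, treated with 25 nM PMA for 0 h, 6 h or 72 h. PMA is a phorbol ester that drives this line toward a megakaryocyte-like state. Each time had 4 biological replicates of in situ Hi-C, a method that ligates DNA ends lying close together in crosslinked nuclei, so that a sequenced pair counts as a contact between positions. The 42 samples, 14 per time, are technical replicates and sequencing runs of these 12 libraries.

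The 12 libraries held between 736929 and 1472197 contacts over all loops. Replicates 1 and 2 had 3 technical replicates each, and replicates 3 and 4 had 2 each, sequenced in 2 runs. At 72 h, replicates 3 and 4 differed by less than the noise of sampling (0.9992 chi-square units per degree of freedom, over 28285 loops) and were counted as 1 sample, so n = 3 at 72 h in each mean. The fits behind the p-values kept them as 2 libraries. With them summed into 1, the counts of changed loops given below were 7 at 72 h against 0 h and 5 from 6 h to 72 h. At 0 h and 6 h, replicates 3 and 4 also lay close to this noise (1.015 and 1.017 chi-square units per degree of freedom) and were counted as 2. The other pairs of replicates ran from 1.053 to 1.264, so n = 4 at 0 h and 6 h may overstate the independent samples. A fit within replicates 3 and 4 has in effect 1 sample at 72 h, so its p-values understate the spread. The labels do not say that biological replicates were separate cultures, so p-values measure the spread between these libraries only. Values per library are normalized counts, that is, contacts scaled to 1000000 contacts in tested loops. In bulk cells, contact in more cells and more frequent contact per cell cannot be told apart.

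The RefSeq genes of the alpha cluster span chr5:140786140-141012347 with 15 genes, those of beta chr5:141051374-141249365 with 16 and those of gamma chr5:141330514-141512975 with 22 (GRCh38.p14). Anchors are 10 kb wide and were placed by their midpoint. Of the 28 loops, 12 had an anchor in a cluster: 3 in alpha, 5 in beta and 7 in gamma, with loops between clusters counted under both. The other 16 joined positions before alpha or downstream of gamma. No loop in the table joined alpha to gamma or alpha to the downstream side. Loop lengths ran from 40 to 1310 kb with a median of 345 kb, against 440 kb over all loops. The 28 loops used 32 anchor positions in the window, and 10 of these served more than 1 loop, so the loops are not independent of each other.

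Promoters that lie in the anchors of the loops described below are shown first. Anchors are 10 kb wide, so where in an anchor the contact lies is not known. Each run is the 100 bases before the gene's start on the plus strand, from RefSeq (GRCh38.p14). Capitals mark CGCT on either strand (AGCG on the printed strand), the core of the conserved sequence element of clustered protocadherin promoters. PCDHA7 (chr5:140834169-140834268) lies in the alpha anchor of loop12578 and PCDHA12 (chr5:140875208-140875307) in that of loop12579. PCDHB13 (chr5:141213819-141213918) lies in the beta anchor shared by loop12581, loop12582 and loop12583. PCDHGA9 (chr5:141402678-141402777) and PCDHGB6 (chr5:141407921-141408020, the upstream of its RefSeq starts) share the gamma anchor of loop12585 and loop12586. PCDHGA11 (chr5:141420951-141421050) lies in the gamma anchor of loop12588.
PCDHA7: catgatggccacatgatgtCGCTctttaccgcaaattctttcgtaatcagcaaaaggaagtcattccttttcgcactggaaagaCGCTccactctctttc
PCDHA12: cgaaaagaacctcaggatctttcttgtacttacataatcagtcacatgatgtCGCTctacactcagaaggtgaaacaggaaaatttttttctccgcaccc
PCDHB13: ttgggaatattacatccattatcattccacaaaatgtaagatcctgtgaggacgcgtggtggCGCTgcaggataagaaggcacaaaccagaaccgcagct
PCDHGA9: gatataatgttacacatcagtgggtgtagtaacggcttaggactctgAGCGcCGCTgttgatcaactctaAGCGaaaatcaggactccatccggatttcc
PCDHGB6: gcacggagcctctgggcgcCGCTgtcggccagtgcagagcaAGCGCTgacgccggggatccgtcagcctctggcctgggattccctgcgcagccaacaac
PCDHGA11: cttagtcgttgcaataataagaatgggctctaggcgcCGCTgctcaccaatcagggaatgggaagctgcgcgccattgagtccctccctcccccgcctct

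The letters CGCT, searched on both strands, occurred in the 250 bases before the start of 12 of 13 alpha, 13 of 14 beta and 20 of 20 gamma genes with a promoter entry. Over all 27305 promoters, 67.2% held them. In the 100 bases nearest the start, 12 alpha, 13 beta and 19 gamma promoters held them, against 48.8% of all promoters. Longer runs around this core, read off after the sequences were seen, differed by cluster. ATGTCGCT stood in 9 of 13 alpha promoters and in no beta or gamma promoter over 250 bases, and 0.22% of all promoters held it. GGCGCTGCA stood in 9 of 14 beta promoters, in no alpha or gamma promoter and in 0.725% of all promoters. GCGCCGCTG stood in 10 of 20 gamma promoters and in 1.2% of all promoters. These runs contain CGCT, so the counts overlap. The core letters of the CTCF motif (CCA, any 2 bases, AG, any 2 bases, GGC, on both strands) occurred in 1 of 14 beta promoters, in no alpha or gamma promoter and in 2.51% of all promoters. In PCDHB9, the beta gene with a match, these letters run into CGCT, so the searches are not independent. Only exact matches were counted, so a promoter without one is not shown to lack a CTCF site. A match is a description of letters in these windows and no measure of binding.

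**Figure D1:**
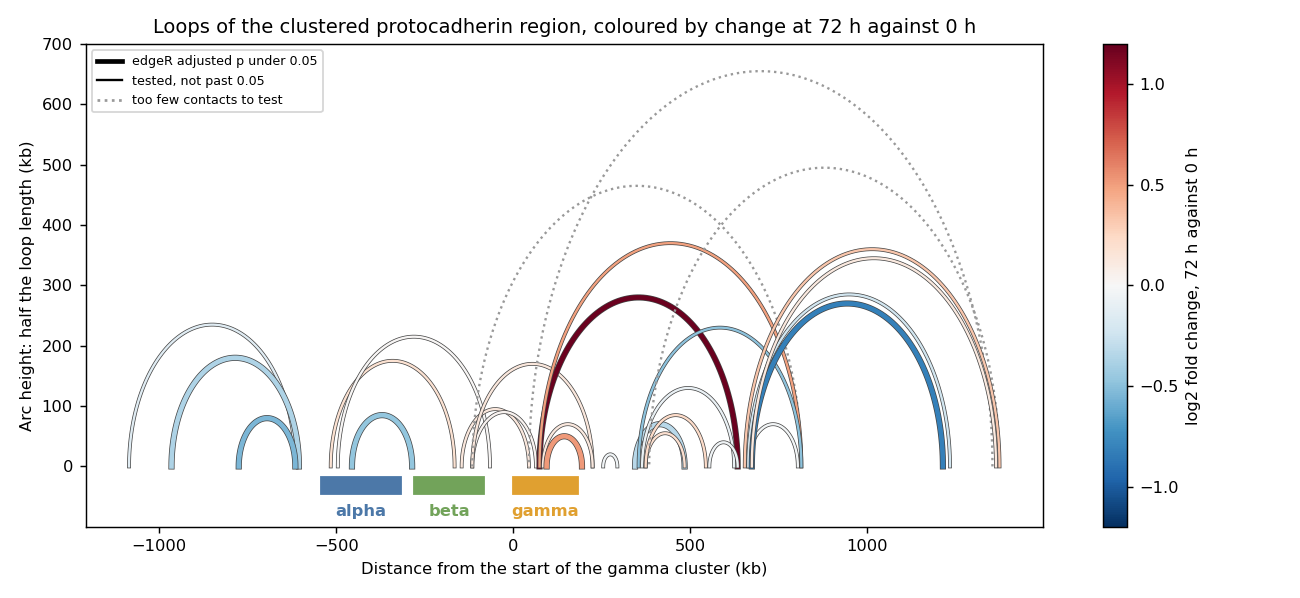
Arcs join the anchors of the 28 loops, with distance in kb from the start of the gamma cluster on the x axis and arc height, in kb, growing with the loop length; bars mark the alpha, beta and gamma gene spans. Colour is the log2 fold change at 72 h against 0 h, thick arcs passed an adjusted p of 0.05 and dotted arcs had too few contacts to test. The thick red arcs both start in gamma, and 4 of the 5 thick blue arcs have no anchor in a cluster.

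Of the 28 loops, 25 had enough contacts for a test and 3 did not. At 72 h, 7 of the 25 changed against 0 h by edgeR's quasi-likelihood test (adjusted over 24132 loops, threshold 0.05): 2 were higher and 5 lower. The background was 33.6% of all tested loops changed, 16.7% higher and 16.9% lower, so the share of changed loops in the region was near that of all tested loops. The 2 higher loops, loop12585 and loop12588, both ran from an anchor in the gamma cluster to an anchor downstream of it. The 5 lower loops were loop12579, from the alpha cluster, and loop12573, loop12576, loop12590 and loop12600, which had no anchor in a cluster. Loop12585 is the loop that chose the window and shares its 0 h libraries with that choice, so it is counted here but given no p-value. Without replicate 1 of 0 h the count was 4, with 2 higher and 2 lower. With DESeq2 it was 3: loop12576, loop12585 and loop12588. The falls of loop12573, loop12579, loop12590 and loop12600 missed the threshold there, with adjusted p of 0.0708, 0.0582, 0.104 and 0.0518.

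The median log2 fold change at 72 h against 0 h was 0.02 over the 25 tested loops and 0.01 over all tested loops, with 13 of the 25 above 0 and 51% of all. It was 0.14 for the 10 tested loops with an anchor in a cluster, 9 of which lay above 0. It was -0.08 for the 15 tested loops with none, 4 of which lay above 0. By cluster the median was 0.02 for the 3 alpha loops, 0.14 for the 4 tested beta loops and 0.31 for the 6 tested gamma loops. The gamma median and that of the 10 loops include loop12585 (1.19), the loop that chose the window. The other tested gamma loops ran from 0.04 (loop12581) to 0.52 (loop12588). Whether the clusters differ was not tested. At 6 h against 0 h the medians were 0.10 for the 25 loops and 0.01 for all tested loops. As a description, loop12585 and loop12601 had all 6 h libraries above all of 0 h, as did 4.97% of all tested loops, and none of the 25 had all of them below, as did 5.77%. Of the 25 loops, 17 lay above 0 at 6 h, with 51.7% of all tested loops.

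From 6 h to 72 h, 4 of the 25 loops changed and all 4 fell: loop12579, loop12599, loop12600 and loop12601. By edgeR or DESeq2 0 rose, also at an unadjusted p under 0.05. With DESeq2 only loop12579 fell (adjusted p = 0.000677), and loop12599, loop12600 and loop12601 had adjusted p of 0.0945, 0.0978 and 0.0659. The background was 20.5% changed, with 10.7% higher and 9.81% lower. The median log2 difference was -0.19 over the 25 loops, of which 7 lay above 0 and 18 below, and 0.00 over all tested loops, of which 50% lay above 0. This comparison shares its 6 h libraries with the one that chose the window, in which loop12585 and loop12601 were high at 6 h.

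**Figure D2:**
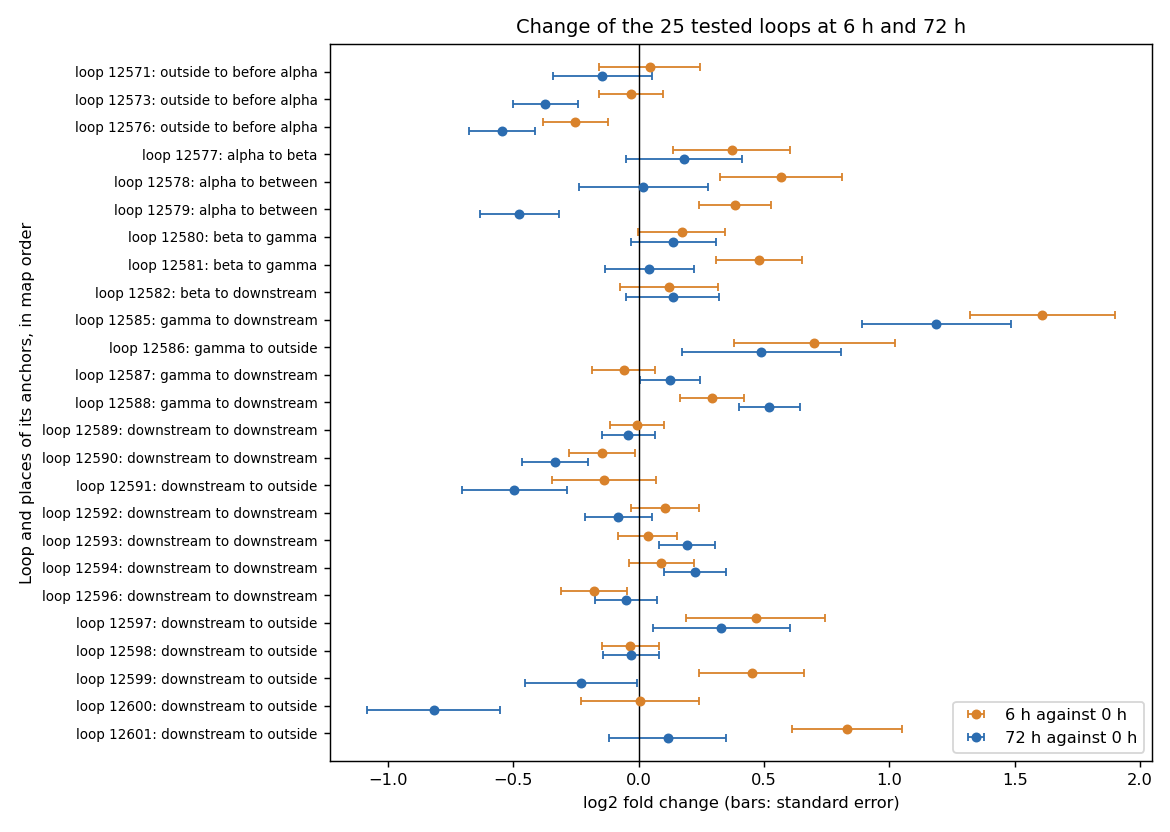
Points are the log2 fold changes at 6 h (orange) and 72 h (blue) against 0 h of the 25 tested loops, in map order from before alpha at the top to downstream at the bottom; bars are standard errors. Loop12585 stands highest at both times, and loop12579, loop12599 and loop12600 lie on the left at 72 h after a value of 0 or above at 6 h.

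Loop12585 joined the gamma cluster to the far end of the window. Its upstream anchor, chr5:141400001-141410000, holds the starts of PCDHGA9 and PCDHGB6, each with a variable exon of the gamma cluster. Its downstream anchor, chr5:141960001-141970000, lies 560 kb away inside RNF14, a ubiquitin ligase gene. RefSeq starts of RNF14 at 141966843 and 141969105 lie in that downstream anchor. Normalized counts at 0 h were 7.97, 1.90, 5.02 and 2.27 in replicates 1 to 4. At 6 h they were 16.7, 22.4, 22.6 and 10.9, and at 72 h 11.5, 14.1, 13.5 and 13.4. Every library at 6 h and at 72 h lay above every library at 0 h, at 72 h as in 14.2% of tested loops, and the 6 h and 72 h libraries overlapped. The raw counts were small, with 19 contacts at 0 h (exact 95% Poisson interval 11.4 to 29.7), 66 (51.0 to 84.0) at 6 h and 55 (41.4 to 71.6) at 72 h, and intervals cover counting error only. In single technical replicates, 10 per time, contacts ran between 0 and 5 for 0 h, between 2 and 14 for 6 h and between 1 and 8 for 72 h.

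The means of loop12585 were 4.29 ± 2.82 (SD, n = 4) at 0 h, 18.2 ± 5.59 (SD, n = 4) at 6 h and 13.0 ± 1.34 (SD, n = 3) at 72 h. The ratio of means to 0 h was 4.23 at 6 h and 3.03 at 72 h. The fitted log2 fold changes were smaller, 1.61 at 6 h and 1.19 at 72 h, because the fit adds a prior count of 2 that pulls low loops toward 0. The 6 h value ranked 1 among 24132 loops, ahead of 1.46 for the next, and the 72 h value ranked 178. Over fits that left out each library in turn the 72 h value ran from 0.98 to 1.59. It was 1.01 within replicates 1 and 2 and 1.43 within replicates 3 and 4. Among 1894 tested loops of similar length (within 10%), the mean of loop12585 stood at percentile 0.106 at 0 h, 53.9 at 6 h and 27.9 at 72 h. It passed the count filter through its 6 h and 72 h libraries, so loops as low at 0 h that stayed low are not among those it was set beside.

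Loops that shared an anchor with loop12585 did not pass the threshold at 72 h. Loop12586 starts at the same PCDHGA9 and PCDHGB6 anchor and runs 740 kb to chr5:142140001-142150000, inside NDFIP1, an adaptor of ubiquitin ligases. Its normalized counts were 2.90, 12.3, 3.76 and 4.55 at 0 h, 10.8, 10.3, 9.91 and 12.1 at 6 h, and 6.19, 2.01, 11.4 and 16.1 at 72 h. The times overlapped, since replicate 2 was the highest library at 0 h and the lowest at 72 h. At 72 h its log2 fold change was 0.49 (SE 0.32, adjusted p = 0.229). It passed the threshold without replicate 2 of 0 h (0.96, adjusted p = 0.0330), and it was -0.56 within replicates 1 and 2 and 1.33 within replicates 3 and 4. Loop12596 ends at the same RNF14 anchor and starts 80 kb before it. It had a log2 fold change of -0.05 (SE 0.12, adjusted p = 0.788), with means of 74.8 ± 4.23 (SD, n = 4) at 0 h and 70.5 ± 7.25 (SD, n = 3) at 72 h. Whether these loops differ from loop12585 in their change was not tested.

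Loop12588 was the other loop that rose at 72 h. Its upstream anchor, chr5:141420001-141430000, holds the start of PCDHGA11 and the pseudogene PCDHGB8P, and its downstream anchor, chr5:141520001-141530000, lies 100 kb away inside DIAPH1, a formin gene of actin assembly next to the gamma cluster. Normalized counts were 68.8, 57.9, 97.85 and 77.3 at 0 h, 89.2, 70.1, 101.9 and 108.6 at 6 h, and 104.4, 113.4, 96.7 and 112.5 at 72 h. Replicate 3 of 0 h was as high as the lowest library of 72 h, and the other 0 h libraries lay below all of 72 h. The means were 75.5 ± 16.9 (SD, n = 4) at 0 h and 107.5 ± 5.17 (SD, n = 3) at 72 h, a log2 fold change of 0.52 (SE 0.12, adjusted p = 0.000259). The call held in each of 12 fits that left out a library, with a highest adjusted p of 0.00885. It was 0.74 within replicates 1 and 2 (adjusted p = 0.0004) and 0.27 within replicates 3 and 4 (adjusted p = 0.228).

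Loop12587 lies beside loop12588, from the anchor that holds PCDHGA10 and PCDHGB7 to the start of DIAPH1-AS1, an antisense RNA gene, 140 kb away. Its mean was 79.1 ± 7.61 (SD, n = 4) at 0 h, 75.6 ± 6.35 (SD, n = 4) at 6 h and 87.0 ± 4.33 (SD, n = 3) at 72 h. The log2 fold change at 72 h against 0 h was 0.13 (SE 0.12, adjusted p = 0.430). All 72 h libraries lay above all 6 h libraries, a pattern held by 10.4% of tested loops, and the adjusted p of that difference was 0.291.

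Of the 4 tested loops of the beta cluster, 0 passed the threshold in either comparison by edgeR or DESeq2. Over all tested loops, 33.6% changed at 72 h against 0 h and 20.5% from 6 h to 72 h by edgeR. Of the 4, 0 had an unadjusted p under 0.05 at 72 h against 0 h and 1 had it from 6 h to 72 h. Loop12581 joined the anchor of PCDHB12 and PCDHB13, single-exon genes, to that of PCDHGA8 and PCDHGB5, 180 kb away. Normalized counts were 29.0, 42.7, 26.3 and 22.7 at 0 h, 45.1, 49.5, 39.6 and 37.4 at 6 h, and 25.7, 26.1, 38.5 and 36.6 at 72 h. Replicate 2 of 0 h and replicate 3 of 72 h lay among the 6 h libraries, so the times overlapped. The log2 fold change was 0.04 at 72 h (SE 0.18, adjusted p = 0.877) and -0.44 between 6 h and 72 h (SE 0.17, adjusted p = 0.0506). The sign at 72 h turned within replicates 1 and 2, where it was -0.42 (adjusted p = 0.201).

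Loop12580, the other loop from beta to gamma, joined PCDHB8, PCDHB16 and PCDHB9 to PCDHGB3 and PCDHGA6. Its means were 31.0 ± 2.88 (SD, n = 4), 35.4 ± 2.78 (SD, n = 4) and 34.2 ± 3.68 (SD, n = 3) at 0 h, 6 h and 72 h. Loop12582 ran from the same PCDHB12 and PCDHB13 anchor over the whole gamma cluster to DIAPH1-AS1. Its normalized counts were 30.4, 22.8, 23.8 and 25.0 at 0 h, 15.7, 31.8, 28.3 and 39.8 at 6 h, and 30.1, 27.1, 26.0 and 31.2 at 72 h. The 6 h libraries spread over the range of both other times. The log2 fold change at 72 h was 0.14 (SE 0.19, adjusted p = 0.606).

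The 3 loops of the alpha cluster were above 0 at 6 h and below their 6 h level at 72 h. For loop12579 alone the fall from 6 h passed the threshold by edgeR, as it did for 9.81% of all tested loops. Loop12579 joined chr5:140870001-140880000, which holds the start of PCDHA12, to chr5:141040001-141050000, 170 kb away between alpha and beta, at an end of PCDHB1-AS1. Normalized counts were 52.9, 47.5, 50.2 and 36.4 at 0 h, 60.8, 65.4, 72.2 and 51.9 at 6 h, and 31.85, 31.1, 34.3 and 36.6 at 72 h. All 72 h libraries lay below all 6 h libraries, a pattern of 9.43% of tested loops, and at 0 h only replicate 4 reached down to them. The means were 46.7 ± 7.24 (SD, n = 4), 62.6 ± 8.52 (SD, n = 4) and 32.8 ± 2.32 (SD, n = 3). The log2 difference from 6 h to 72 h was -0.86 (SE 0.15, adjusted p = 8e-06), with the call kept in each fit that left out a library. Against 0 h it was -0.47 (SE 0.16, adjusted p = 0.0124), and that call was lost without replicate 1 of 0 h (-0.41, adjusted p = 0.0728) and with DESeq2 (adjusted p = 0.0582). Within replicates 1 and 2 the change from 0 h was -0.67 (adjusted p = 0.0163), and within replicates 3 and 4 it was -0.26 (adjusted p = 0.460).

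Loop12577 joined an alpha anchor inside the region of PCDHA1 to PCDHA4, chr5:140810001-140820000, to a beta anchor, chr5:141160001-141170000, 350 kb away. Neither anchor held a RefSeq gene end. Normalized counts were 12.3, 19.9, 16.3 and 11.4 at 0 h, 20.6, 28.04, 15.6 and 12.1 at 6 h, and 15.04, 23.1, 15.6 and 15.2 at 72 h. Replicate 2 was the highest library at each time, and the times overlapped. Its log2 fold change at 72 h was 0.18 (SE 0.23, adjusted p = 0.572). Loop12578, from PCDHA7 to a position between beta and gamma, had means of 12.6 ± 4.03 (SD, n = 4), 19.1 ± 9.28 (SD, n = 4) and 12.01 ± 4.26 (SD, n = 3). Its log2 difference from 6 h to 72 h was -0.55 (SE 0.24, adjusted p = 0.0899).

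**Figure D3:**
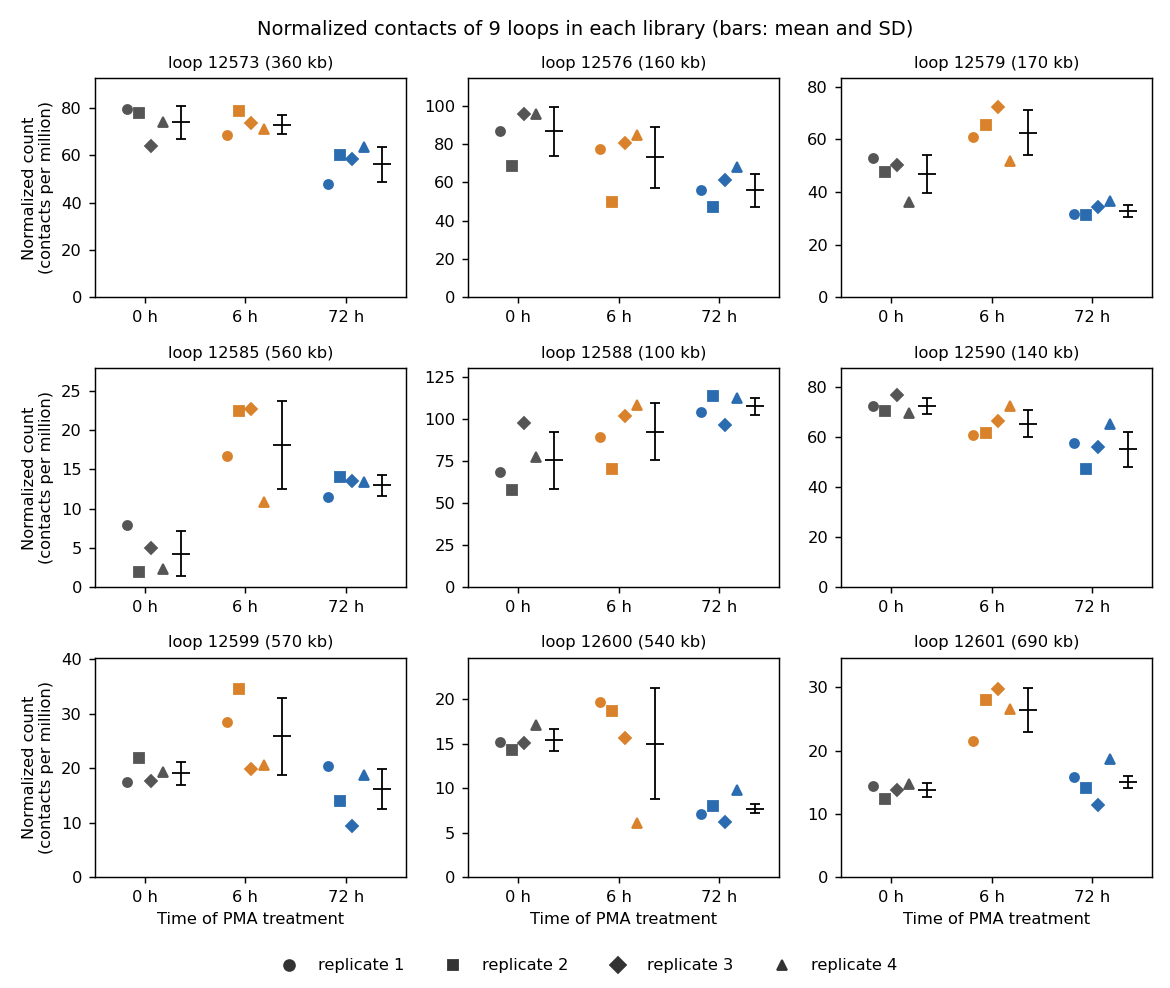
Each panel shows the normalized count (contacts per 1000000) of 1 loop in the 12 libraries by time of PMA treatment, with marker shapes for replicates 1 to 4; bars are the mean and SD, with 72 h replicates 3 and 4 counted as 1. The 9 loops are those that passed an adjusted p of 0.05 at 72 h against 0 h or against 6 h, and loop12585 is the loop that chose the window. Loop12585 is low in all 4 libraries of 0 h, and loop12579 and loop12601 are higher at 6 h than in any 72 h library.

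On the side before alpha, all 3 loops lay below 0 at 72 h against 0 h and 2 of them fell by edgeR, as did 16.9% of all tested loops. Loop12576 joined SRA1 and APBB3, a steroid receptor RNA activator and an adaptor protein gene, to the vault RNA genes VTRNA1-1 and VTRNA1-2, 160 kb away. Normalized counts were 86.9, 68.3, 95.3 and 95.5 at 0 h, 77.5, 49.5, 80.7 and 84.5 at 6 h, and 55.7, 47.2, 61.4 and 67.8 at 72 h. Every 72 h library lay below every 0 h library, as in 14.1% of tested loops, and replicate 2 was the lowest library at each time. The fall on the log2 scale was -0.54 (SE 0.13, adjusted p = 0.000443), and the call held in each fit that left out a library. It was -0.60 within replicates 1 and 2 (adjusted p = 0.0098) and -0.54 within replicates 3 and 4.

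Loop12573 joined SLC4A9, an anion exchanger gene, to VTRNA1-3, 360 kb away. Normalized counts were 79.7, 77.8, 64.0 and 73.9 at 0 h, 68.6, 78.5, 73.6 and 71.2 at 6 h, and 47.8, 60.2, 58.2 and 63.4 at 72 h. The 72 h libraries lay below all libraries of both other times, by a small margin at replicate 4. Of all tested loops, 14.1% had all 72 h libraries below all of 0 h and 9.43% below all of 6 h. The log2 fold change at 72 h against 0 h was -0.37 (SE 0.13, adjusted p = 0.0177). The call was lost without replicate 1 of 0 h (-0.34, adjusted p = 0.0668) and without replicate 1 of 72 h (-0.30, adjusted p = 0.0976), and with DESeq2 (adjusted p = 0.0708). It was -0.55 within replicates 1 and 2 (adjusted p = 0.017) and -0.18 within replicates 3 and 4 (adjusted p = 0.537). Loop12571, which shares the vault RNA anchor of loop12576, had a log2 fold change of -0.14 (SE 0.20, adjusted p = 0.603).

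Downstream of gamma, 13 loops joined positions beyond the clusters to each other or to positions past the window, and 12 of them were tested. At 72 h against 0 h, 2 of the 12 fell by edgeR, with 16.9% of all tested loops lower. By DESeq2 neither of these 2 passed the threshold. By edgeR or DESeq2 0 rose, also at an unadjusted p under 0.05, with 16.7% of all tested loops higher by edgeR. From 6 h to 72 h, 3 of the 12 fell by edgeR, with 9.81% of all tested loops lower. All 3 started at RNF14 or GNPDA1 and ended past the window. Loop12600 started at chr5:142000001-142010000, which holds an end of GNPDA1, a glucosamine-6-phosphate deaminase gene, and ran 540 kb to an anchor with no gene end. Normalized counts were 15.2, 14.2, 15.1 and 17.1 at 0 h, 19.6, 18.7, 15.6 and 6.03 at 6 h, and 7.08, 8.03, 6.24 and 9.82 at 72 h. Every 72 h library lay below every 0 h library, as in 14.1% of tested loops, while replicate 4 of 6 h was as low as 72 h. The means were 15.4 ± 1.19 (SD, n = 4), 14.97 ± 6.21 (SD, n = 4) and 7.71 ± 0.55 (SD, n = 3).

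Against 0 h the log2 fold change of loop12600 at 72 h was -0.82 (SE 0.26, adjusted p = 0.0107). The call held in each fit that left out a library and was lost with DESeq2 (-0.98, adjusted p = 0.0518). It was -0.84 within replicates 1 and 2 and -0.82 within replicates 3 and 4, with adjusted p of 0.0855 and 0.125. From 6 h the difference was -0.82 (SE 0.27, adjusted p = 0.0201), and this call was lost without replicate 1 or 2 of 6 h and without replicate 1 or 3 of 72 h, with a highest adjusted p of 0.108. Within replicates 3 and 4 that difference was -0.28 (adjusted p = 0.731).

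Loop12601 shares the GNPDA1 anchor and ran 690 kb to an anchor with an end of FGF1, a fibroblast growth factor gene. Its normalized counts were 14.5, 12.3, 13.8 and 14.8 at 0 h, 21.6, 28.04, 29.7 and 26.5 at 6 h, and 15.9, 14.1, 11.4 and 18.8 at 72 h. Every 6 h library stood above every library of both other times, and 0 h and 72 h overlapped. As a description, the mean at 6 h was 1.91 times that at 0 h, and 4.97% of tested loops had all 6 h libraries above all of 0 h. All 72 h libraries lay below all of 6 h in 9.43% of tested loops. The log2 difference from 6 h to 72 h was -0.71 (SE 0.21, adjusted p = 0.00995), with the call kept in each fit that left out a library and lost with DESeq2 (adjusted p = 0.0659). It was -0.67 within replicates 1 and 2 (adjusted p = 0.134) and -0.78 within replicates 3 and 4 (adjusted p = 0.0918). Against 0 h, loop12601 at 72 h had a log2 fold change of 0.12 (SE 0.23, adjusted p = 0.735).

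Loop12599 started at RNF14 and ran 570 kb past the window. Its normalized counts were 17.4, 21.8, 17.6 and 19.3 at 0 h, 28.4, 34.6, 19.8 and 20.5 at 6 h, and 20.35, 14.1, 9.36 and 18.75 at 72 h. Replicates 1 and 2 of 6 h stood above all other libraries, and the rest overlapped. The log2 difference from 6 h to 72 h was -0.68 (SE 0.21, adjusted p = 0.0145). The call was lost without replicate 2 of 6 h and without replicate 3 of 72 h, with a highest adjusted p of 0.118. It was -0.80 within replicates 1 and 2 (adjusted p = 0.0408) and -0.43 within replicates 3 and 4 (adjusted p = 0.447).

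Loop12590 joined an anchor inside ARAP3, a gene for a regulator of small GTPases, to a position 140 kb away with no gene. Normalized counts were 72.4, 70.2, 76.5 and 69.4 at 0 h, 60.8, 61.7, 66.5 and 72.4 at 6 h, and 57.5, 47.2, 56.2 and 65.2 at 72 h. The 72 h libraries lay below those of 0 h, as in 14.1% of tested loops. The log2 fold change was -0.33 (SE 0.13, adjusted p = 0.0365), and the call was lost in 5 of 12 fits that left out a library: without replicates 1 or 3 of 0 h, or without replicates 1, 2 or 3 of 72 h. Within replicates 1 and 2 it was -0.44 (adjusted p = 0.0666) and within replicates 3 and 4 -0.25 (adjusted p = 0.352). It also missed the threshold with libraries scaled to their total count (adjusted p = 0.0799), with an offset for loop length (adjusted p = 0.0826) and with DESeq2 (adjusted p = 0.104).

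The strongest loops downstream showed little movement. Loop12589, the shortest at 40 kb, joined a position in DIAPH1 to HDAC3, a histone deacetylase gene. Normalized counts were 134.0, 117.7, 134.2 and 111.4 at 0 h, 125.5, 124.3, 107.5 and 137.5 at 6 h, and 122.1, 111.4, 131.0 and 120.5 at 72 h. The times overlapped throughout, and the log2 fold change at 72 h was -0.04 (SE 0.11, adjusted p = 0.795), a value whose sign turned with total-count scaling (0.01) and with the length offset (0.12). Loop12598 joined RNF14 to a position inside NDFIP1, 140 kb away. Its normalized counts were 107.9, 109.2, 94.1 and 103.5 at 0 h, 92.2, 91.6, 120.3 and 109.8 at 6 h, and 109.7, 99.4, 97.75 and 100.9 at 72 h. Here too the times overlapped, with a log2 fold change of -0.03 (SE 0.11, adjusted p = 0.855) that turned to 0.02 with either of these scalings. The other 6 tested loops downstream had log2 fold changes from -0.49 (loop12591, at ARAP3, adjusted p = 0.0561) to 0.33 (loop12597, adjusted p = 0.355).

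The 3 untested loops were long and thinly covered. Loop12583, 930 kb from PCDHB12 and PCDHB13 to NDFIP1, had 15, 31 and 14 contacts at the 3 times, with exact 95% Poisson intervals of 8.4 to 24.7, 21.1 to 44.0 and 7.65 to 23.5. Loop12584, 1310 kb from PCDHGB3 and PCDHGA6 to FGF1, had 18, 25 and 21 contacts. Loop12595, 990 kb from a downstream anchor past the window, had 22, 26 and 16 contacts. All 6 h libraries of loop12583 lay above all of 0 h and all of 72 h, and all 72 h libraries of loop12595 lay below all of 6 h. Among tested loops, 4.97% had all 6 h libraries above all of 0 h. All 72 h libraries lay below all of 6 h in 9.43%. The libraries of loop12584 overlapped at all times, and no test was made for these 3 loops.

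**Figure D4:**
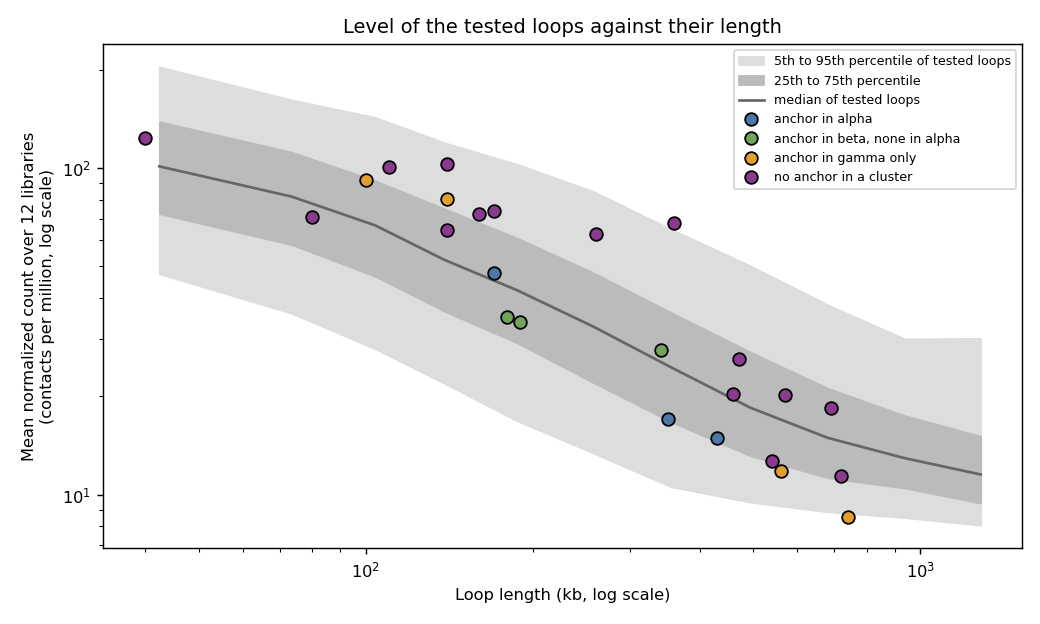
Points are the mean normalized count over the 12 libraries (log scale) of the 25 tested loops against loop length (kb, log scale), coloured by the cluster of their anchors; the line and bands are the median, the 25th to 75th and the 5th to 95th percentile of all tested loops. Loops from beta lie near or below the line, and the strongest loops for their length have no anchor in a cluster.

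The level of a loop depends on its length, so levels were set beside loops of similar length (within 10%). At 0 h, loop12577 and loop12578 from alpha stood at percentiles 22.0 and 21.6, and loop12580 and loop12581 from beta to gamma at 31.0 and 27.3. Loop12579 moved from percentile 51.8 at 0 h to 72.3 at 6 h and 29.0 at 72 h. Loop12588 stood at 57.3, 76.6 and 86.6 at the same times. Other cluster loops stood higher at 0 h, with loop12582 from beta at 52.0 and loop12587 from gamma at 77.7. Outside the clusters, loop12573 stood at 96.7 at 0 h and loop12598 at 89.6, but loop12596 stood at 43.4 and loop12597 at 17.1. Loop12600 stood at 47.2 at 0 h and 3.42 at 72 h. The plot of level against length shows the same 25 loops as means over all libraries.

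Loops at the limits of the window were set beside those just past them. Loop12571 and loop12576 have the lowest anchors inside, at chr5:140710001-140720000. Just below the window, loop12572 and loop12575 end at an anchor starting at 140630001, with log2 fold changes at 72 h of -0.29 and 0.08. Loop12600 and loop12601 start on the upper limit and were kept, and loop12602, just above it, had a log2 fold change of -0.09.

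Replicates 1 and 2 and replicates 3 and 4 differ in their number of technical replicates, and several changes were larger in the former pair. In an interaction fit of these pairs with time, none of the 25 loops passed an adjusted p of 0.05 (edgeR, smallest adjusted p 0.697 at 72 h and 0.893 at 6 h), while 6 of 25 at 72 h and 1 of 25 at 6 h had an unadjusted p under 0.05, with 6.09% and 5.57% of all tested loops. The part of this pairing in the results was not tested further.

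Genes related to the clusters were looked up at loop anchors over the whole table. Of 14 non-clustered protocadherin genes, which encode cadherin-superfamily proteins from single loci elsewhere or beside the clusters, 5 had an end in an anchor, and only PCDH1 and PCDH12 had a tested loop, both within the window. The loop at PCDH1 (loop12594) had a log2 fold change at 72 h of 0.23 (adjusted p = 0.151) and that at PCDH12 (loop12592) of -0.08 (adjusted p = 0.677). Of 17 genes for CTCF, cohesin, its loaders and silencing factors of the clusters, 9 had tested loops. Among their 15 loops, 1 rose, at WIZ, a zinc finger protein that works with histone methyltransferases (log2 fold change 0.41, adjusted p = 0.00657). There were 4 that fell, at MAU2, a cohesin loader (-0.63), STAG1 (-0.59) and STAG2 (-0.54), alternative cohesin subunits, and PDS5A, a cohesin regulator (-0.41). Their adjusted p were 0.00905, 0.00829, 0.00467 and 0.0219. Other tested loops at STAG1 had log2 fold changes of 0.04, -0.36 and -0.22, and another at PDS5A had -0.14. None of these passed the threshold. Over all tested loops 33.6% changed, 16.7% higher and 16.9% lower, so 5 of 15 changed is near the background. The median over the 15 loops was -0.22, against 0.01 over all tested loops. Of 12 neighbouring protein-coding genes in the window, 5 had a tested loop with 6 loops in all, and 0 of these 6 changed at 72 h by edgeR or DESeq2 (1 had an unadjusted p under 0.05 by edgeR). This lookup used the outer ends of each gene. Loop12585 and loop12596, whose shared anchor holds inner RefSeq starts of RNF14, are therefore not among the 6. GNPDA1, at the anchor on the upper limit, was not in the list, so loop12600 and loop12601 are not among the 6. Loop12600 fell at 72 h by edgeR, as given above.

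In the authors' deposited table, 21 of the 28 loops have log2 fold changes and 7 do not, loop12585 among the latter. All 28 are classed as static there. For 3 of them the adjusted p of the authors' deposited table, from 1 test over the times, lies below 0.05: 0.00575 for loop12579, 0.0301 for loop12588 and 0.0456 for loop12576. For loop12601 the authors' deposited table gives a log2 fold change of 0.55 at 6 h. Its adjusted p of 0.0609 is from the same test over the times and not of the 6 h change alone.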

How the data were processed

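The authors deposited 1 table of 33914 loops with whole-number contact counts in 30 columns, 1 per technical replicate, per the file headers. Juicer 1.5.6, DESeq2 and hg38 are named per the submitters' processing notes. Loop calling is not given in the sources used here. The deposited log2 fold changes and adjusted p-values are the authors' own. Other values in the table, the deposited anchor positions, start from 0 and are printed counted from 1.

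Counts were summed per biological replicate and time into 12 libraries, with no background subtracted. Loops were kept by filterByExpr (minimum count 10, minimum total 15) and tested in edgeR 4.0.16 under R 4.3.3 (TMM scaling, quasi-likelihood test, prior count 2, Benjamini-Hochberg adjustment over 24132 loops, threshold 0.05) in 1 model with no covariate. Alternatives were DESeq2 1.42.0, other scalings, no filter, a length offset, a batch term, a replicate block and leaving out each library. The test was checked on simulated counts with known changes. It missed some of these, more often the smaller ones, so a loop that did not pass may still have changed.

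The loops, lists and tests were chosen with earlier results of these data known. Loops given by library were the largest rise at 6 h, the strongest loop of each pair of places and those past the threshold at 72 h. Genes at anchors are those of RefSeq (GRCh38.p14) with an end in the anchor.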

Additional observations from a re-analysis of the deposited data

How the results depend on the processing

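The count of loops that changed at 72 h against 0 h was 7. It was 3 with DESeq2, 3 at an adjusted p under 0.01, and 4 within replicates 1 and 2 (1 higher and 3 lower). Fits within replicates 3 and 4 have in effect 1 sample at 72 h, so their counts are not given for either comparison. Their log2 fold changes often differed from those within replicates 1 and 2. They were 0.27 against 0.74 for loop12588, -0.18 against -0.55 for loop12573 and -0.26 against -0.67 for loop12579. Of the 7, only loop12585 changed more within replicates 3 and 4 (1.43 against 1.01). The count ran from 4 to 8 when each library was left out. From 6 h to 72 h the count was 4. It was 7 with no filter on low counts, 1 with DESeq2 and 2 at an adjusted p under 0.01, and ran from 3 to 6 when each library was left out. With the replicate number as a block the counts were 7 and 6. Deviations of same-numbered libraries correlated weakly, at 0.0146 to 0.124, each positive and highest for replicate 2 (0.124, 0.0659 and 0.0606). Those of differently numbered libraries ran from -0.0738 to 0.0441. What same-numbered libraries share was not tested. Signs turned only for loops that did not pass the threshold. At 72 h against 0 h, loop12581 (0.04) was -0.0216 with no filter, -0.42 within replicates 1 and 2 and from -0.0633 to 0.225 when each library was left out. Loop12586 (0.49) was -0.56 within replicates 1 and 2 and 1.33 within replicates 3 and 4. Loop12589 (-0.04) was 0.0117 with total-count scaling, 0.12 with the length offset and 0.0348 within replicates 3 and 4. Loop12598 (-0.03) was 0.0215, 0.0163 and 0.00543 under the same settings. Loop12601 (0.12) was -0.0547 with the length offset and ran from -0.00152 to 0.198 when each library was left out. In every alternative run, loop12576 stayed lower and past the threshold. Fits within a pair of replicates rest on fewer libraries. Low counts limit the long loops: loop12585 had 19 contacts at 0 h.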
